A study of Mus musculus with 3 samples.

Results

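Notch pathway genes were followed in the cells of the mouse pituitary intermediate lobe (IL), the thin lobe that is built mainly of melanotrophs, the endocrine cells that secrete melanocyte-stimulating hormone. The set was chosen by name and holds 10 genes of 17775 with a row in any of the 3 tables of unique molecular identifier (UMI) counts. These are the receptors Notch1, Notch2 and Notch3, the ligands Jag1, Dll1 and Dll3, the target repressors Hes1 and Hey1, the related factor Hes6, and Rbpj, which encodes the DNA-binding factor of the pathway. All 10 had a row in every table.

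In Notch signaling, a DSL ligand on one cell binds a receptor on its neighbor, proteases then free the intracellular part of the receptor, and this fragment joins RBPJ on DNA to switch on repressors such as HES1 and HEY1. HES1 in turn holds back factors of differentiation, while HES6 opposes HES1 and DLL3, unlike DLL1 and JAG1, acts inside the cell that makes it and does not activate receptors on neighbors. In the developing pituitary the pathway is known for keeping progenitors undifferentiated, and in blood vessels for arterial fate and for the coating of vessels by mural cells.

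The study compared 3-month-old mice given tamoxifen by mouth at 4 weeks according to the labels, while the study's text places Cre induction in these animals at birth, with dissected ILs pooled into 1 droplet library for each genotype. All 3 carried Sox9iresCreERT2/+, a tamoxifen-dependent Cre made where Sox9 is expressed, which includes the stem cells (SCs). The study's methods also give all 3 genotypes the Cre reporter Rosa26ReYFP/+, which the labels leave out. The library labelled WT had no p27 or Sox2 allele changed, P27NULL (Sox9iresCreERT2/+;p27-/-) lacked the cell cycle inhibitor p27, encoded by Cdkn1b, and S2CK (Sox9iresCreERT2/+;Sox2fl/+;p27-/-) in addition carried 1 Sox2 copy that Cre can delete. The study describes the WT pool as male and the other pools as of both sexes. With 1 library per genotype, animals, handling, sex and genotype cannot be told apart between libraries, no replicate error exists, no test was made, and each 95% interval covers counting error only.

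The libraries held 2020 (WT), 4153 (P27NULL) and 3488 (S2CK) cells with medians of 3642.5, 2740 and 4906.5 UMIs per cell. Between 2 and 4 cell barcodes were shared by any pair of libraries. Xist, the transcript of the inactive X chromosome, had no row in the WT table and was detected in 783 P27NULL cells and in 3274 S2CK cells, so the S2CK library was nearly all female by this transcript. In melanotroph-like cells Cdkn1b was at 34.7, 31.0 and 16.9 UMIs per 1000000 UMIs (CPM) in WT, P27NULL and S2CK. The library labelled P27NULL was therefore not lower than WT at the 3' end of the targeted transcript, which checks nothing where that end is outside the deleted part. Which part of the gene the allele lacks is not given in the sources used here. Sox2 in SC-like cells was at 282, 309 and 135 CPM, lower in S2CK than in P27NULL by a log2 ratio of -1.20 (95% interval -1.62 to -0.78).

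Cells were clustered without the pathway genes and named from marker genes. SC-like cells numbered 136, 104 and 82 in WT, P27NULL and S2CK, melanotroph-like cells 1254, 3528 and 2995, and endothelial-like cells 82, 23 and 49. All 6 SC markers were detected in the SC-like clusters of every library, and from 5 to 7 melanotroph markers in the melanotroph-like clusters. The names came from these same markers, so their detection is not independent evidence. Sox9, not used for naming, was at 80.8, 119 and 101 CPM in SC-like cells and at no more than 3.47 CPM in melanotroph-like cells. When all libraries were clustered together, the largest part of the melanotroph-like cells fell into different clusters, with 728 WT cells in one led by Ccnd2, 1255 P27NULL cells in one led by Snhg9 and 1947 S2CK cells in one led by Xist. Differences between libraries within melanotroph-like cells stand beside that split. Pomc, the melanotroph hormone gene, was read in SC-like cells at 14.9%, 9.21% and 13.5% of its melanotroph-like level in WT, P27NULL and S2CK, and in macrophage-like cells at 19.2%, 38.3% and 26%.

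Promoters of Dll3 and Hes6 are shown because both genes were expressed in melanotroph-like cells of each library. RefSeq promoter windows on GRCm38.p6, 250 bases before to 50 after a transcript start, were given for 8 of the 10 genes, 11 windows in all. Capitals mark CAGCTG, an E-box, the class of letters bound by basic helix-loop-helix factors, which reads the same on both strands and does not overlap the other motif searched.
Dll3, chr7:28301736-28302035, minus strand: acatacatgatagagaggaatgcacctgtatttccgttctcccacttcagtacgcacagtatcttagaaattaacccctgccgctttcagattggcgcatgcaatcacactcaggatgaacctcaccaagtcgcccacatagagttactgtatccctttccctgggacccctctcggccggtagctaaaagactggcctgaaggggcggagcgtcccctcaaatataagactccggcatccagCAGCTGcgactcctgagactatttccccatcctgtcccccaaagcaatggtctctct
Hes6, chr1:91413989-91414288, minus strand: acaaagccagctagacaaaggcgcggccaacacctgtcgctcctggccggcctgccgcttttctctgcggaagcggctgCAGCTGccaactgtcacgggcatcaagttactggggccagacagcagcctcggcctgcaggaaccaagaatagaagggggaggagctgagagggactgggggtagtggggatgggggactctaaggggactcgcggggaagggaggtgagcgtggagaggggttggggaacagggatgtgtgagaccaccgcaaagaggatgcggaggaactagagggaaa
Hes6, second start, chr1:91413173-91413472, minus strand: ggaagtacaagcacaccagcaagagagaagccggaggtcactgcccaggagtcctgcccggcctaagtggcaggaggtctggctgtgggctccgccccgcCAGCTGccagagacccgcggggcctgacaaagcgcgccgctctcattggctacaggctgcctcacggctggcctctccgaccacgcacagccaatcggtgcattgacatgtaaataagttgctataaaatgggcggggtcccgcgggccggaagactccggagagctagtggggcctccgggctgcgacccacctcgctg
This E-box began 7 bases before the Dll3 start and 171 and 150 bases before the Hes6 starts. It was also found in 1 window each of Jag1 and Dll1, so 5 of the 11 windows held it, against 16.3% of all 32851 windows. TGGGAA or its complement TTCCCA, the core letters bound by RBPJ, was found in both windows of Rbpj and in none of the other 9, against 25.6% of all windows. The Rbpj windows overlap, and the match in the later window is the same stretch as a match in the earlier window. A match is a description of these letters and not a bound site. Hes1 (chr16:30065357-30067796) and Hey1 (chr3:8663359-8667038) are given by position only.

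Receptors differed by cell type. Notch2 (chr3:98013538-98150367) encodes the receptor with the most UMIs in SC-like cells and was at 192 (95% interval 156 to 233) CPM in WT, 140 (105 to 183) in P27NULL and 273 (233 to 317) in S2CK. In melanotroph-like cells it was at 16.9, 8.28 and 15.9 CPM, so the SC-like level was 11.3, 16.9 and 17.2 times as high. The ranges of the 2 cell types over the libraries did not overlap.

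Notch1 (chr2:26457902-26503822) was at 16.9, 37.0 and 37.3 CPM in SC-like cells and at 112, 73.4 and 45.9 CPM in endothelial-like cells. In melanotroph-like cells it was nearly absent, with 0, 1 and 4 UMIs in sums of 6022546, 13648696 and 17016950 UMIs. The 0 UMIs of WT allow a level of up to 0.498 CPM at a limit of 3 counts. Notch1 was thus found in SC-like and endothelial-like cells of each library, on few UMIs (9 to 23 and 5 to 14).

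Notch3 (chr17:32120820-32166896), a receptor best known from mural cells, was at 16.9, 42.3 and 30.8 CPM in SC-like cells from 9, 16 and 19 UMIs. In melanotroph-like cells it had 0, 1 and 2 UMIs. In endothelial-like cells it had 4, 7 and 3 UMIs, and all 7 of P27NULL came from 1 cell. Of these 14 UMIs, 13 lay in the 29 endothelial-like cells that held 3 or more UMIs of mural markers, the cell type that coats vessels, and 1 in the other 125.

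**Figure D1:**
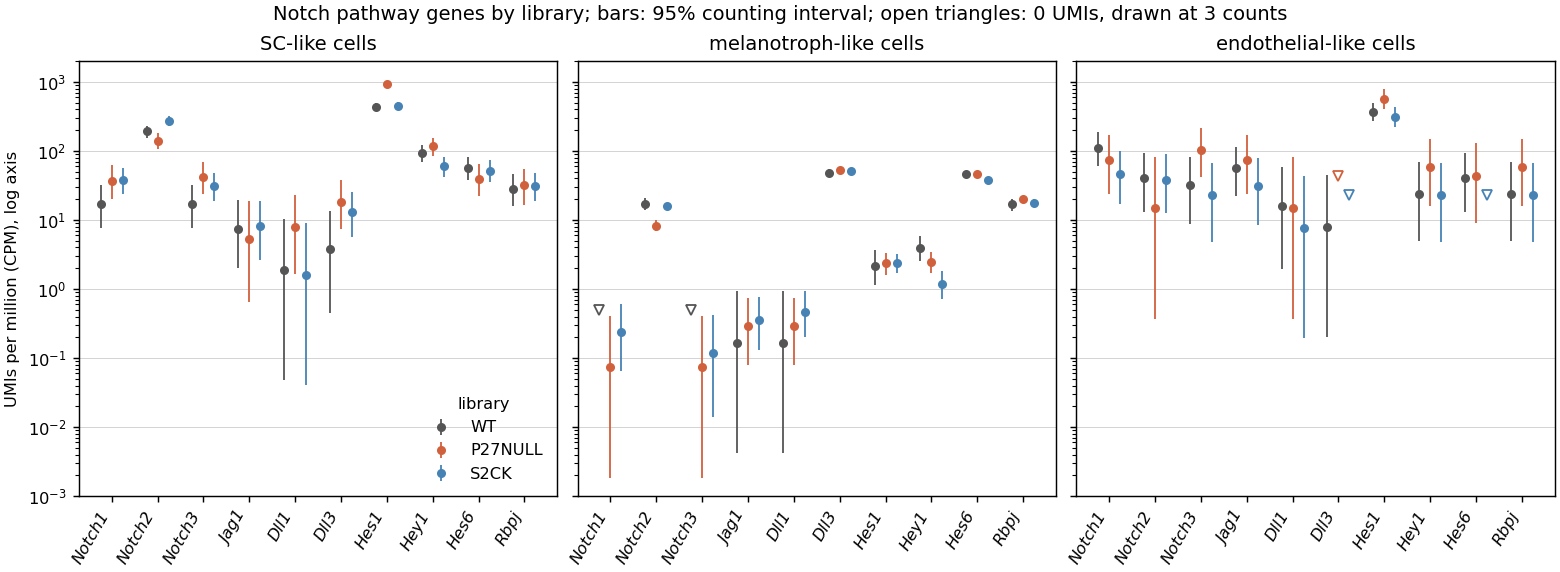
Level of each gene in CPM on a log axis in SC-like, melanotroph-like and endothelial-like cells of the WT, P27NULL and S2CK libraries, with 95% counting intervals as lines and a sum of 0 UMIs drawn as an open triangle at 3 counts. Notch2, Hes1 and Hey1 stood highest in SC-like cells, while Dll3 and Hes6 lay between 37.3 and 52.5 CPM in melanotroph-like cells of each library.

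Ligands followed another pattern. Of the ligands Jag1, Dll1 and Dll3, Dll3 had the most UMIs in melanotroph-like cells, at 48.5 (43.1 to 54.4) CPM in WT, 52.5 (48.8 to 56.5) in P27NULL and 50.4 (47.1 to 53.9) in S2CK. The 3 counting intervals overlapped. A Dll3 UMI was found in 19.9%, 16.5% and 24.04% of melanotroph-like cells, and in 5.19%, 5.16% and 5.04% after each cell was thinned to 1000 UMIs, with 20 shallow WT cells left out and none of the other libraries.

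SC-like cells held 2, 7 and 8 Dll3 UMIs, which is 7.75%, 35.2% and 25.8% of the melanotroph-like level in CPM. These percentages stand beside the 14.9%, 9.21% and 13.5% of Pomc in the same cells. The share of SC-like cells with a Dll3 UMI was 1.47%, 5.77% and 9.76% at median depths of 2027, 2317 and 3561.5 UMIs, and in macrophage-like cells, which should lack the gene, it was 0.725%, 0% and 3.42% at 1557.5, 1965.5 and 2577 UMIs. The 0 of 122 P27NULL macrophage-like cells came from 342156 UMIs, where 3 counts would be 8.77 CPM. The intervals of the SC-like and macrophage-like shares overlapped in each library, and the difference itself was not tested. In P27NULL, where 7 UMIs in SC-like cells stood against 0, the SC-like level was 18.5 (7.44 to 38.1) CPM. Other P27NULL types held Dll3 at 31.8 CPM (connective-tissue-like, 5 UMIs), 14.4 CPM (gonadotroph-like, 7 UMIs) and 31.8 CPM (T- or NK-like, 1 UMI). Endothelial-, pituicyte- and Pou1f1-lineage-like cells of P27NULL held 0 UMIs. The SC-like level was thus not above that of every type other than melanotroph-like cells, and the part of melanotroph RNA in it was not tested.

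Jag1 was sparse in SC-like cells, with 4, 2 and 5 UMIs, and in melanotroph-like cells, with 1, 4 and 6 UMIs. It was higher in connective-tissue-like cells, at 23.4, 44.5 and 84.0 CPM from 3, 7 and 13 UMIs, and in endothelial-like cells, at 56.0, 73.4 and 30.6 CPM from 7, 5 and 4 UMIs. As for Notch3, 13 of the 16 endothelial-like Jag1 UMIs lay in the 29 cells with mural markers. Dll1 was sparse throughout, with no more than 8 UMIs in any of the 3 main cell types of a library.

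Few single cells held both a receptor and a ligand UMI. A UMI of any of the 3 receptors was found in 51.5%, 41.35% and 75.6% of SC-like cells and in 7.496%, 3.09% and 8.11% of melanotroph-like cells. A UMI of any of the 3 ligands was found in 5.15%, 9.62% and 17.1% of SC-like cells and in 19.9%, 16.6% and 24.3% of melanotroph-like cells. The receptor share was the larger in SC-like cells of every library, also at 1000 UMIs per cell, with 23.2%, 15.4% and 30.5% against 2.19%, 0.737% and 1.90%. The ligand share was the larger in melanotroph-like cells before thinning, but at 1000 UMIs per cell it was 0.8%, 3.85% and 7.32% of SC-like against 5.19%, 5.22% and 5.14% of melanotroph-like cells, so the order turned in S2CK, with overlapping intervals in each library. Both were read in 6, 8 and 11 SC-like cells (4.41%, 7.69% and 13.4%) and in 18, 31 and 67 melanotroph-like cells (1.44%, 0.879% and 2.24%). Cells with a ligand UMI numbered 7, 10 and 14 among SC-like and 250, 587 and 729 among melanotroph-like cells. Most SC-like cells with a ligand UMI thus also held a receptor UMI before thinning. At 1000 UMIs per cell this did not hold in P27NULL and S2CK. There 1, 0 and 2 SC-like cells of WT, P27NULL and S2CK held both, among 1, 4 and 6 with a ligand UMI. The shares with both rise with depth and fell to 0.8%, 0% and 2.44% of SC-like cells at 1000 UMIs per cell, where the 0 of 104 P27NULL cells reach up to 3.485% by the exact binomial interval.

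A Hes1 UMI was found in 55.7%, 88.4% and 71.0% of SC-like cells with a receptor UMI and in 48.5%, 55.7% and 60% of those without one. Cells of greater depth hold more UMIs of any gene, and at 1000 UMIs per cell the shares were 20.7% against 30.2% in WT, 56.3% against 47.7% in P27NULL and 28.0% against 29.8% in S2CK. At equal depth the order of the shares was thus not the same in each library.

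Targets marked the SC-like and endothelial-like cells. Hes1, the repressor most often used as a readout of the pathway, was at 428 (375 to 488) CPM in SC-like cells of WT, 934 (839 to 1036) in P27NULL and 453 (401 to 509) in S2CK. Melanotroph-like cells held 2.16, 2.35 and 2.41 CPM, and the SC-like level was 198, 398 and 188 times as high. A Hes1 UMI was found in 0.797%, 0.765% and 1.27% of melanotroph-like cells, at median depths of 4185.5, 2823.5 and 5023 UMIs, against 52.2%, 69.2% and 68.3% of SC-like cells.

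In endothelial-like cells Hes1 was at 368 (269 to 491), 572 (407 to 783) and 314 (225 to 426) CPM. It was lower than in SC-like cells in P27NULL, by a log2 ratio of -0.71 (-1.22 to -0.23), and in S2CK, by -0.53 (-1.04 to -0.05), while in WT the interval of -0.22 held 0 (-0.71 to 0.24). Pituicyte-like cells, the glia of the neighboring posterior lobe, held 175, 201 and 147 CPM, and connective-tissue-like cells 148, 146 and 84.0 CPM. Melanotroph-like cells lay below SC-, endothelial-, pituicyte- and connective-tissue-like cells in every library, with intervals that did not overlap.

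Hey1, a second target repressor, was at 92.1, 116 and 60.1 CPM in SC-like cells and at 3.99, 2.49 and 1.18 CPM in melanotroph-like cells. The SC-like level was 23.1, 46.7 and 51.1 times as high. In endothelial-like cells Hey1 was at 24, 58.7 and 23.0 CPM, on only 3, 4 and 3 UMIs. SC-like cells held 49, 44 and 37 UMIs, from larger UMI totals. The log2 ratio of endothelial-like to SC-like cells was -1.94 (-4.27 to -0.31) in WT. In P27NULL and S2CK it was -0.99 (-2.93 to 0.47) and -1.39 (-3.73 to 0.27), so both intervals held 0. Among the 4 pituicyte-, connective-tissue-, macrophage- and gonadotroph-like types no level exceeded 13.5 CPM.

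Read against all genes, 3 of the 6 members with 10 or more UMIs in WT were past 2-fold higher in SC-like than in melanotroph-like cells with an interval that left out 0 (Notch2, Hes1 and Hey1), where 16.7% of all genes tested were. In P27NULL these were 5 of 8 members, with Notch1 and Notch3 added, against 15.5% of all genes, and in S2CK 6 of 9, with Jag1 added, against 17.5%. Dll3 was past 2-fold lower in SC-like cells of each library, where 6.61%, 6.00% and 6.86% of all genes were. Members that were counted only because SC-like cells were high had to differ, so these counts are descriptions. The median log2 ratio over all genes tested was 0.23, 0.35 and 0.29.

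**Figure D2:**
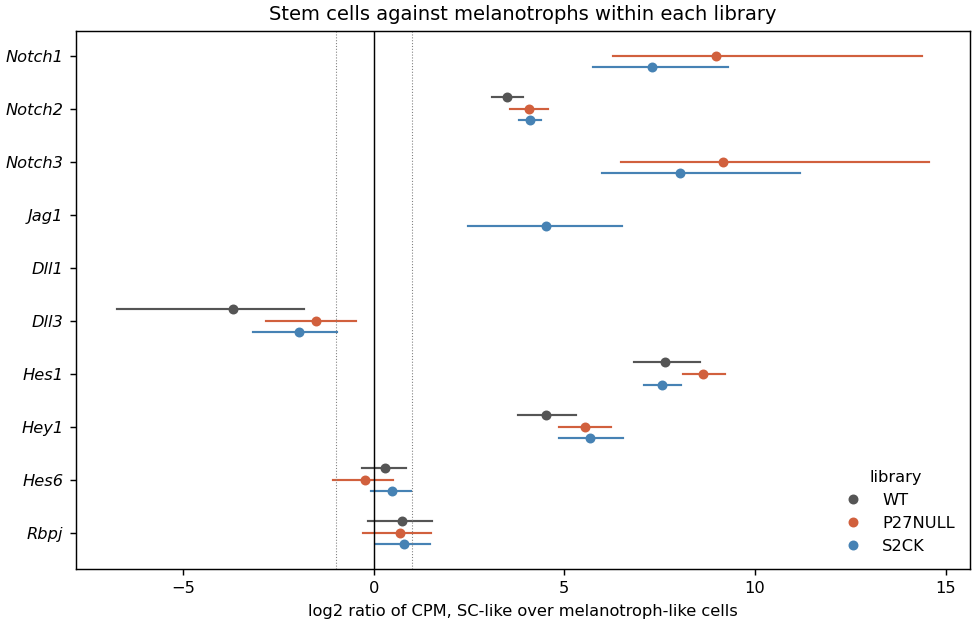
Log2 ratio of CPM in SC-like over melanotroph-like cells for each member with 10 or more UMIs, by library, with 95% counting intervals as lines and dotted lines at a 2-fold difference. Notch2, Hes1 and Hey1 lay to the right and Dll3 to the left in each library, while the intervals of Hes6 held 0.

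Hes6 did not follow Hes1. It was at 46.2 (40.9 to 51.9), 46.7 (43.1 to 50.4) and 37.3 (34.5 to 40.3) CPM in melanotroph-like cells and at 56.4 (38.0 to 80.5), 39.7 (22.2 to 65.4) and 51.9 (35.5 to 73.3) CPM in SC-like cells. The log2 ratios between these cell types were 0.29, -0.23 and 0.48, and each interval held 0 (-0.31 to 0.83, -1.08 to 0.50 and -0.08 to 0.99). Its highest level was in gonadotroph-like cells, the anterior lobe cells that make luteinizing and follicle-stimulating hormone, at 213 (168 to 265), 189 (152 to 232) and 206 (149 to 277) CPM. These 3 intervals overlapped each other and lay above every SC-like and melanotroph-like interval. In SC-like cells a Hes6 UMI was in 14.7%, 11.5% and 25.6% of cells, but in 4.8%, 2.88% and 2.44% after thinning, with 11 shallow WT cells left out.

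Rbpj (chr5:53555779-53657445) was found in SC-like and melanotroph-like cells alike, at 28.2, 31.7 and 30.8 CPM in SC-like and 16.8, 19.9 and 17.7 CPM in melanotroph-like cells. The log2 ratio of SC-like to melanotroph-like cells was 0.75 (-0.14 to 1.54), 0.68 (-0.29 to 1.505) and 0.80 (0.05 to 1.47). None of the 3 ratios was past 2-fold, and the interval left out 0 in S2CK. In macrophage-like cells Rbpj was at 66.0, 73.1 and 66.3 CPM, with intervals above those of melanotroph-like cells in each library.

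**Figure D3:**
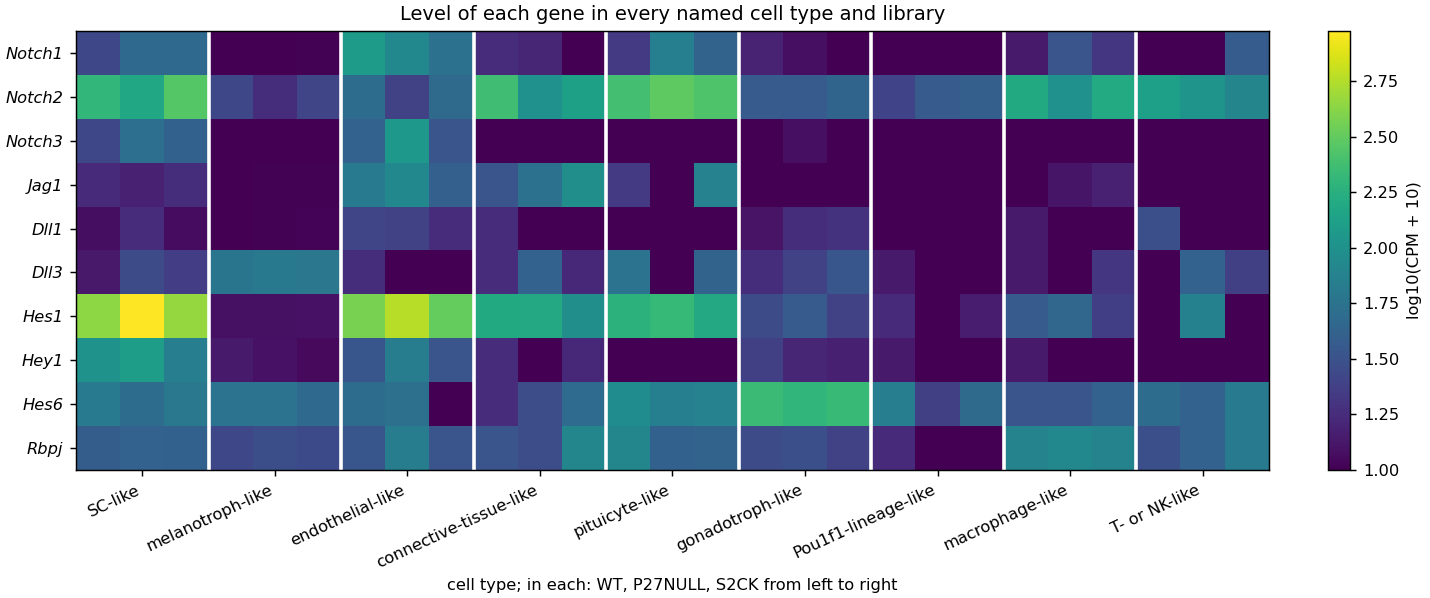
Level of each member as log10(CPM + 10) by color in 9 named cell types, each with the WT, P27NULL and S2CK libraries from left to right. Hes1 was brightest in SC-like and endothelial-like cells, Hes6 in gonadotroph-like cells, Notch2 in SC-, pituicyte-, connective-tissue- and macrophage-like cells, and Dll3 was even over the 3 melanotroph-like columns.

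Other cell types added further receptor signal. Notch2 was at 233, 294 and 261 CPM in pituicyte-like cells, at 226, 88.96 and 123 CPM in connective-tissue-like cells and at 147, 90.6 and 151 CPM in macrophage-like cells. Its SC-like levels were within the counting intervals of pituicyte-like cells in WT and S2CK (143 to 360 and 149 to 423 CPM) and below them in P27NULL (177 to 459 CPM). Notch2 was therefore not particular to SC-like cells.

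Genes whose levels followed a member over the 24 profiles of a library and a cell type with at least 20 cells were listed by Pearson's r of log2(CPM + 10), among 9187 genes. These profiles share libraries and depth, and r is given as a description. Hes1 was most like Timp3 (r = 0.940), Ddah2 (0.939) and Rhoc (0.927), and Notch2 most like Ldhb (0.853), Tmbim6 (0.797) and Reep5 (0.796). Dll3 was most like Ephx4 (0.813), Tram1l1 (0.808) and Rab26 (0.801), and Hes6 most like 1110046J04Rik (0.833), Khdrbs2 (0.773) and Tgfbr3l (0.754). Rbpj was most like Gdi2 (0.785), Wdr1 (0.783) and Cdc42 (0.774), and the other 5 members had fewer than 300 UMIs over these profiles.

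Between genotypes, Hes1 in SC-like cells was higher in P27NULL than in both other libraries. Its log2 ratio was 1.12 (0.88 to 1.37) in P27NULL relative to WT, -1.04 (-1.28 to -0.81) in S2CK relative to P27NULL and 0.08 (-0.18 to 0.34) in S2CK relative to WT. At least 3 Hes1 UMIs were found in 27 of 136, 43 of 104 and 32 of 82 SC-like cells, and the highest single cell held 23, 22 and 32. After thinning to 1000 UMIs, a Hes1 UMI was in 28.0% (20.3 to 36.7), 49.0% (39.1 to 59.0) and 29.3% (19.7 to 40.4) of SC-like cells. The P27NULL share was the highest at this equal depth, and its interval lay apart from that of WT and met that of S2CK. Without the cell with the most Hes1 UMIs in each library, the log2 ratios were 1.16, -1.09 and 0.07.

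Hes1 stands in a list of genes that the study chose on these same samples in SCs, so its direction is not independent evidence. Within P27NULL, SC-like cells were called male without a Xist UMI, and female with a Xist UMI and no UMI of Y-linked genes. The male call did not depend on Y-linked UMIs, so female cells in which Xist was missed can be among the cells called male. Hes1 was at 929 (827 to 1039) CPM in the 86 cells called male and at 967 (711 to 1286) CPM in the 18 called female. P27NULL cells called male gave a log2 ratio of 1.12 against WT. S2CK against those called female gave -1.09, where the median of all genes was -0.43. The ratio of P27NULL to WT was thus as large within cells called male.

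Immediate early genes (IEGs), which dissociation of tissue can switch on within minutes, moved with Hes1. The study lists Ier2, Fos, Junb, Jun and Egr1 among SC genes that it chose on these same samples. Their order here is thus not independent evidence. The study ties these genes to the MAPK pathway and also reports stronger phosphorylated ERK staining in p27-/- SCs on pituitary sections. The summed level of 14 IEGs in SC-like cells was 5688 CPM in WT, 11600 in P27NULL and 5982 in S2CK. Of these 14, 6 were past 2-fold higher in P27NULL than in WT with a median log2 ratio of 0.96, and 7 were past 2-fold lower in S2CK than in P27NULL with a median of -0.96. Atf3, Fosb, Klf4, Fos, Egr1 and Ier2 were the 6. Heat shock genes were not uniform, with a median of 0.11 over 9 genes in P27NULL relative to WT and of -0.56 over 10 in S2CK relative to P27NULL. Summed IEGs were also higher in P27NULL than in WT gonadotroph-like cells, at 8971 against 2496 CPM, but lower in melanotroph-like cells, at 2880 against 4651 CPM. The part of these genes in the Hes1 result was not tested.

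**Figure D4:**
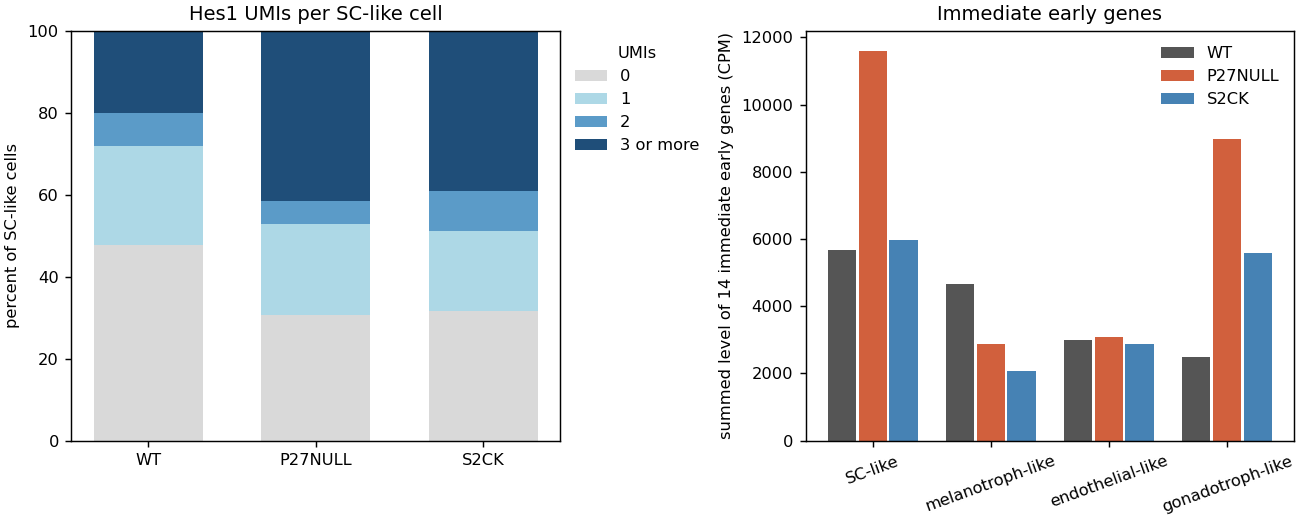
Left, percent of SC-like cells with 0, 1, 2 and 3 or more Hes1 UMIs in each library, and right, the summed CPM of 14 immediate early genes in 4 cell types by library. Cells with 3 or more Hes1 UMIs were 27 of 136 in WT, 43 of 104 in P27NULL and 32 of 82 in S2CK, and the summed early gene level of SC-like cells was highest in P27NULL, at 11600 CPM.

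In endothelial-like cells the Hes1 log2 ratio was 0.64 (-0.02 to 1.28) in P27NULL relative to WT and -0.87 (-1.54 to -0.20) in S2CK relative to P27NULL, while the summed IEGs were at 2984, 3082 and 2879 CPM. In melanotroph-like cells no difference was detectable at 13, 32 and 41 UMIs, with ratios between 0.04 and 0.16. A ratio past the 2-fold limit in SC-like cells and not in another type does not show a difference between types, which was not tested.

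Notch2 in SC-like cells was higher in S2CK than in P27NULL, by a log2 ratio of 0.96 (0.51 to 1.43), and than in WT, by 0.51 (0.15 to 0.88). In melanotroph-like cells it was lower in P27NULL than in WT, by -1.03 (-1.43 to -0.63), and higher in S2CK than in P27NULL, by 0.94 (0.62 to 1.27). P27NULL thus had the lowest Notch2 level in both cell types, though in SC-like cells its interval against WT held 0 (-0.96 to 0.04). One S2CK SC-like cell held 20 of the 168 UMIs, and without the highest cell of each library the ratio of S2CK to P27NULL was 0.91 (0.43 to 1.40).

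Hey1 in SC-like cells was lower in S2CK than in P27NULL, by a log2 ratio of -0.95 (-1.63 to -0.29), and for P27NULL against WT it was 0.34 (-0.28 to 0.96). In melanotroph-like cells it was lower in S2CK than in WT, by -1.76 (-2.69 to -0.84), on 20 and 24 UMIs. The melanotroph-like shares of 1.91%, 0.879% and 0.668% of cells with a Hey1 UMI stood beside 0.725%, 0% and 0% of macrophage-like cells. Notch3 in SC-like cells had a log2 ratio of 1.32 (0.06 to 2.68) for P27NULL against WT, on 16 and 9 UMIs. That call was lost with trimmed mean of M values (TMM) scaling, where the ratio was 1.25 (-0.02 to 2.61). It was also lost in P27NULL cells called male, where the ratio was 0.98 (-0.43 to 2.43). After thinning no WT SC-like cell held a Notch3 UMI, so no ratio was given.

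Dll3, Hes6 and Rbpj differed little between libraries in melanotroph-like cells. Dll3 had log2 ratios of 0.12 (-0.08 to 0.32), -0.06 (-0.20 to 0.09) and 0.06 (-0.14 to 0.25) for P27NULL against WT, S2CK against P27NULL and S2CK against WT. Hes6 was slightly lower in S2CK than in P27NULL, by -0.32 (-0.48 to -0.16), and than in WT, by -0.31 (-0.51 to -0.10). The Rbpj ratios were between -0.17 and 0.24, and their intervals held 0.

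By the 2-fold limit, 2 of 7 members tested in SC-like cells were past it in P27NULL relative to WT (Hes1 and Notch3), 1 of 8 in S2CK relative to P27NULL (Hes1) and 0 of 8 for S2CK against WT. Over all genes tested the shares were 4.20%, 8.69% and 7.59%, with median log2 ratios of 0.03, -0.12 and -0.06. In melanotroph-like cells 1 of 6 (Notch2), 1 of 8 (Hey1) and 1 of 6 (Hey1) were past it, against 3.80%, 5.89% and 5.28% of all genes. In endothelial-like cells the counts were 0 of 4, 1 of 3 (Notch3, from the cell with 7 UMIs) and 0 of 4, against 5.21%, 7.62% and 6.00%. With so few members and single genes called, these counts say little beside the background.

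Scaling mattered for S2CK against P27NULL. TMM scaling moved the median of all genes by 0.13 in SC-like and 0.14 in melanotroph-like cells, and leaving out Pomc, mitochondrial and ribosomal protein genes from the totals moved them by 0.13 and 0.13. Under both, the Hes1 ratio in SC-like cells was -0.91, short of the 2-fold limit with an interval below 0, and Notch2 passed the limit at 1.09. In melanotroph-like cells Notch2 passed it under both scalings and Hey1 did not.

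**Figure D5:**
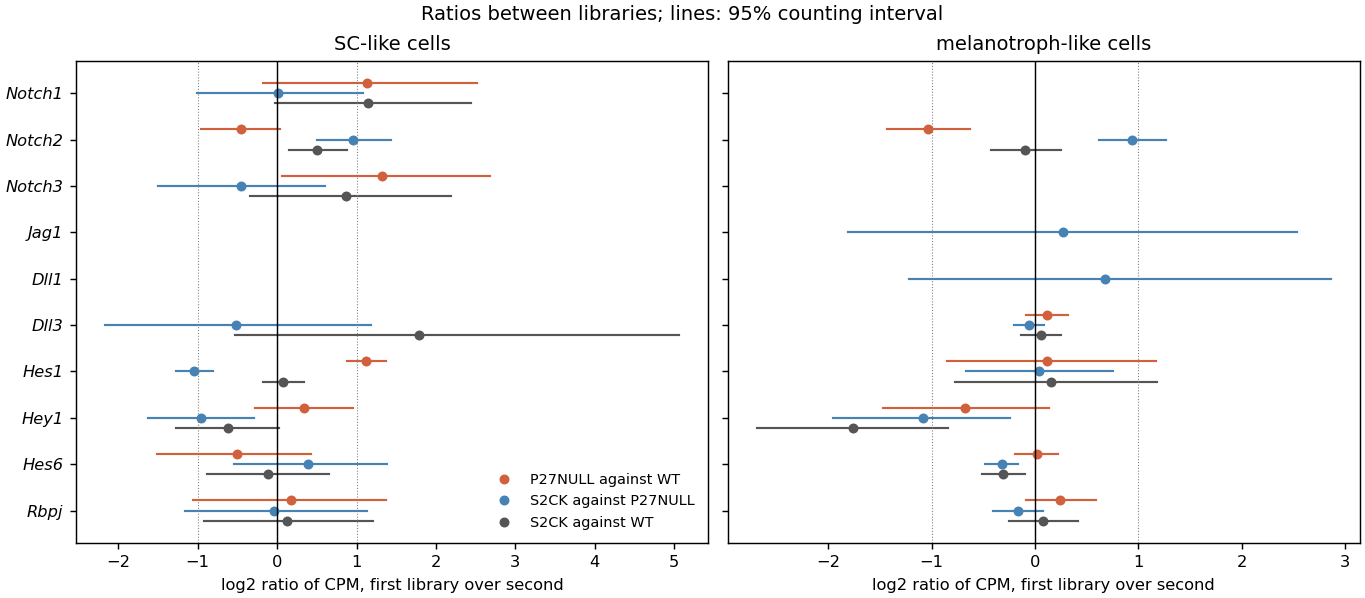
Log2 ratio of CPM between libraries for each member with 10 or more UMIs in the pair, in SC-like cells (left) and melanotroph-like cells (right), with 95% counting intervals as lines and dotted lines at a 2-fold difference. Hes1 in SC-like cells lay at 1.12 in P27NULL relative to WT and at -1.04 in S2CK relative to P27NULL, and Dll3 in melanotroph-like cells stayed near 0.

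Within endothelium, Notch1 was past 2-fold higher than in SC-like cells in WT, by a log2 ratio of 2.73 (1.42 to 4.12), with 0.99 (-0.84 to 2.54) in P27NULL and 0.30 (-1.29 to 1.64) in S2CK. Notch2 was lower than in SC-like cells in each library, by -2.26, -3.26 and -2.83, on 5, 1 and 5 endothelial-like UMIs. Against SC-like cells 4 of 8, 1 of 7 and 2 of 7 members were past the limit in either direction, where 17.4%, 14.2% and 15.1% of all genes were. Against melanotroph-like cells 4 of 7, 2 of 6 and 5 of 8 were, where 16.5%, 11.5% and 14.4% of all genes were. Hes1 and Hey1 were higher in each library, Notch1 in WT and S2CK, and Jag1 in S2CK. Dll3 was lower in WT and S2CK. Members that were counted only because endothelial-like cells were high had to differ, so these counts are descriptions. Hes1 was 170, 244 and 130 times as high as in melanotroph-like cells. Notch1 in WT had 14 against 0 UMIs, which is 225-fold when the 0 is set to 3 counts for the summed library. Its log2 ratio was then 7.81, with a lower interval limit of 7.32.

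Of 53 other genes of the Notch lists, 49, 50 and 51 were tested between SC-like and melanotroph-like cells of WT, P27NULL and S2CK. Past the limit, 8, 7 and 12 were higher and 6, 3 and 2 were lower in SC-like cells. Of all genes 16.7%, 15.5% and 17.5% were higher and 6.61%, 6.00% and 6.86% lower, so the higher count was near the share of all genes in WT and P27NULL. The median log2 ratios of the list were 0.26, 0.23 and 0.53, beside 0.23, 0.35 and 0.29 over all genes. The target genes Hey2 and Heyl were higher in SC-like cells of each library, with 14, 27 and 21 Hey2 UMIs against 2, 3 and 1 and with 16, 15 and 16 Heyl UMIs against 0, 2 and 2. Of the coactivators Maml2 was higher in each library, by log2 ratios of 1.53, 2.53 and 3.10, and so was Dtx4, which encodes a regulator of receptor turnover, by 3.06, 3.15 and 1.51.

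Nrarp, a feedback target, and Kat2b, a coactivator, were higher in SC-like cells of WT and S2CK, Furin, a receptor protease, in WT and P27NULL, Adam17, the sheddase, and Lfng, which modifies receptors with sugar, in P27NULL and S2CK. Adam10 was past the limit in WT, and Pofut1 and Numb in S2CK, and differences between libraries in these contrasts were not tested. Dner, a neuronal ligand, was lower in SC-like cells of each library, at 22.6, 23.8 and 24.4 against 94.3, 108 and 96.8 CPM. Mfng, another sugar transferase, was also lower in each, at 3.76, 7.93 and 4.87 against 23.4, 34.4 and 24.8 CPM. Tle2, Neurl1a and Fbxw7 were lower in WT. Dlk1 was lower in WT and higher in S2CK.

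Insm1, which encodes a factor of endocrine differentiation, was lower in SC-like than in melanotroph-like cells, by log2 ratios of -1.06, -1.97 and -1.29, and was past the limit in each library. Between SC-like and melanotroph-like cells, Dll3 and Insm1 were thus higher where Hes1, Hey1 and Hey2 were lower. This order did not hold in every cell type, as WT pituicyte-like cells held Dll3 at 46.65 CPM on 4 UMIs with Hes1 at 175 CPM.

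Between libraries, some of these 53 genes were past the limit, and they are named as a description. In SC-like cells Hey2, a Hes1-related target, was higher in P27NULL than in WT, by a log2 ratio of 1.44 (0.46 to 2.49), and lower in S2CK than in P27NULL, by -1.07 (-1.96 to -0.19), and so shared the order of Hes1. Poglut1 was also higher for P27NULL against WT, 2 of 40 genes in all. That count is near the 4.20% of all genes past the limit in this contrast. Tle4, a corepressor that the study also listed, was lower in S2CK than in P27NULL, by -1.42 in SC-like and -1.13 in melanotroph-like cells, at 154, 270 and 101 CPM in SC-like cells. Dtx4 was lower and Dlk1 higher in SC-like cells of S2CK than of P27NULL, and for S2CK against WT Dlk1 and Pofut1 were higher and Dtx4 lower. Of all genes tested in SC-like cells, 8.69% and 7.59% were past the limit for S2CK against P27NULL and against WT. In melanotroph-like cells Dlk1, an imprinted gene, was at 11.3, 3.44 and 1.12 CPM, lower in all 3 contrasts. Tle4, Lfng and Neurl1b were the other genes past the limit there, all lower in S2CK than in P27NULL, and Neurl1b also than in WT. Of all genes tested in melanotroph-like cells, 3.80%, 5.89% and 5.28% were past it for P27NULL against WT, S2CK against P27NULL and S2CK against WT. Dlk1 was also among the leading genes of the cluster led by Prl and Gh, and the part of RNA from those cells in its level elsewhere was not tested.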

How the data were processed

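The 3 libraries were made with the Chromium Single Cell 3' kit v3, and the authors counted reads with Cell Ranger 3.0.2 on mouse build mm10 and deposited whole-number UMI counts per gene and cell. STAR 2.5.1b, R 3.6.0 and Seurat 3 are also named in the submitters' processing notes. Every deposited barcode (2020, 4153 and 3488) passes the stated filter of at least 50 genes and at most 10% mitochondrial counts, and each library holds fewer barcodes than the study describes. WT cells reach down to 502 UMIs, against 1005 and 1002 in P27NULL and S2CK. Library totals were 8332285, 15588317 and 19239147 UMIs.

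Members and gene lists were chosen with earlier results of these data known. Cells were scaled to 10000 counts, logged and clustered by Leiden at resolution 1 on 20 principal components of 2000 variable genes, without pathway genes (scanpy 1.11.5, leidenalg 0.10.2). SC-like and melanotroph-like cells came from the clusters of each library, other types from the joint clusters. A name needed 3 detected markers (in 20% of cells), a relative marker level of 0.3 and a lead of 0.1, limits chosen after seeing the data, while 170, 133 and 92 cells stayed unnamed. Scrublet marked 11 cells, which is too few to have worked, so doublets were kept and 268 high-scoring cells left out as an alternative.

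UMIs were summed per library and cell type and given as CPM with exact Poisson intervals, cell shares with exact binomial intervals, and ratios with exact conditional binomial intervals, all at 95% and for counting error only. A ratio was tested against all genes from 10 UMIs in both sums together, and was past the limit at 2-fold with an interval without 0. A sum of 0 was set to 3 counts. The text names all 10 members, the list genes past the limit in a contrast it uses, and the 3 genes most like each member with 300 or more UMIs, apart from a few list genes that are not reported here. Intervals were tested on counts simulated from the Poisson model that they assume. This checked the computation and not variation between cells or libraries. TMM factors came from edgeR 4.0.16. Cell filters, doublets, clustering, naming, scaling, thinning to 1000 UMIs, sex and the UMI minimum were varied, and 2 alternatives were added after the data were seen.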

Additional observations from a re-analysis of the deposited data

How the results depend on the processing

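Of 290 values of 36 comparison results under 14 alternatives, 225 stayed within the limits set, 65 moved and 0 reversed, and of 1120 values for single genes 1095 stayed, 25 moved and 0 reversed. Another 111 values were not given because a sum was 0. No paired analysis was possible because each genotype had 1 library. Depth limits every member, most of all Notch1, Notch3, Jag1, Dll1 and Hey1, and the causes of the changes were not tested. Notch2, Dll3, Hes1, Hes6 and Rbpj also had few UMIs in some cell types, such as 2, 7 and 8 of Dll3 in SC-like cells.

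The Hes1 log2 ratio in SC-like cells of P27NULL relative to WT lay between 1.002 and 1.16, and for S2CK against P27NULL between -1.10 and -0.91. Members past 2-fold in SC-like cells of P27NULL relative to WT fell from 2 to 1 with TMM scaling, thinning and within one sex, where Notch3 was lost. For S2CK against P27NULL they rose from 1 to 2 with thinning and within one sex, and for S2CK against WT from 0 to 1 with at least 500 genes, at least 1000 UMIs, TMM scaling and totals without Pomc, mitochondrial and ribosomal protein genes. In melanotroph-like cells they fell from 1 to 0 for P27NULL against WT with at least 500 genes, at least 1000 UMIs, without candidate doublets, with joint clusters and within one sex, and for S2CK against WT from 1 to 0 with thinning.

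In endothelial-like cells the count rose from 0 to 1 for P27NULL against WT within one sex. For S2CK against P27NULL it fell from 1 to 0 with at least 500 genes, at least 1000 UMIs, no candidate doublets, resolution 2, pathway genes kept in clustering, both scalings, thinning, within one sex, and without cells with mural markers, an alternative chosen after seeing the data.

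Between cell types, thinning left 3 members past 2-fold for SC-like against melanotroph-like cells in P27NULL and 2 in S2CK, and gave a Hes1 log2 ratio of 9.14 in WT. With no minimum of UMIs the count in WT was 7. For endothelial-like against SC-like cells it was 2 in WT with at least 1000 UMIs and with thinning, 2 in P27NULL with no minimum and 0 without mural-marker cells, and 1 in S2CK with at least 1000 UMIs, no candidate doublets, resolution 2, thinning and no mural-marker cells. For endothelial-like against melanotroph-like cells it was 2 in WT without candidate doublets or mural-marker cells, 1 with thinning and 7 with no minimum. In P27NULL it was 1 with thinning and without mural-marker cells and 6 with no minimum. In S2CK it was 3 with at least 500 genes or 1000 UMIs, 2 without candidate doublets, at resolution 2, with pathway genes kept and without mural-marker cells, and 1 with thinning.

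Shares of cells fell with thinning, for Hes1 in SC-like cells to 28.0%, 49.0% and 29.3%, for Dll3 in melanotroph-like cells to 5.19%, 5.16% and 5.04%, and for a receptor and a ligand together to 0.8%, 0% and 2.44% of SC-like and 0%, 0.0283% and 0.134% of melanotroph-like cells.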
